A study of Rattus norvegicus with 71 samples.

Results

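Calb1, Calb2, Pvalb, Vsnl1, Hpca, Hpcal1, Hpcal4, Ncald and Ncs1 encode calcium-binding proteins of neurons. Their 9 rows were taken by gene symbol from a count table of 17494 genes in 71 newborn rat brains. Calb2 and Vsnl1 belong to the list because the study named them in its comparison of exposed with control offspring. Their exposure differences are therefore given as descriptions with no test, while the other 7 genes were tested. All animals were wild-type Sprague-Dawley rats taken at PND2 (postnatal day 2), 35 males and 36 females from 27 litters. Control dams had received adjuvant with saline, and gave 24 offspring in 7 litters. Exposed dams had been immunized before pregnancy with adjuvant and peptides of the antigens after which each pattern is named. This exposes the offspring in gestation to maternal autoantibodies of the kind linked to autism (MARA-AB). The exposed offspring were 8 animals of 4 litters for CRMP1+CRMP2, 8 of 4 litters for STIP1+NSE, 6 of 3 litters for CRMP1+GDA and 25 of 9 litters for LDHA/B+CRMP1+STIP1. Exposure was given to the dam and littermates share a dam, so p-values over animals can be too small. The sample titles fall into a first series (12 controls and 16 LDHA/B+CRMP1+STIP1 animals) and a second series (12 controls, 9 LDHA/B+CRMP1+STIP1 animals and all animals of the other 3 patterns). The study's methods describe a pair of batches of this makeup, processed and sequenced separately.

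Calcium entering a neuron is bound by proteins with EF-hand motifs, a helix-loop-helix fold around the ion. Calbindin, calretinin and parvalbumin act mainly as buffers that limit and shape the calcium signal, and they serve as markers of neuron classes. The visinin-like proteins are sensors: on binding calcium most of them expose a fatty acyl group and move to membranes, where they act on channels, receptors and enzymes. In rodent forebrain parvalbumin appears mainly after the newborn period, while calretinin and calbindin are present before birth.

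Each library came from polyadenylated RNA of 1 coronal slice, labelled 150 um thick, and held between 24880182 and 36234952 counts (median 28439195). The labels place the hippocampus in the slice together with cortex and subcortical tissue, whereas the series' design text names frontal cortex and hypothalamus. Marker genes showed that the slices of the series differed in the tissue they held. The summed level of 6 thalamus markers lay between 53.7 and 132 CPM (a gene's counts scaled to the library, with TMM) in first-series controls and between 276 and 954 CPM in second-series controls. The sum of 10 cortical projection neuron markers had a median of 2000 CPM in first-series and 1270 CPM in second-series controls, and 6 hippocampal markers had medians of 68.9 and 125 CPM. In 3 libraries of the second series the thalamus sum was within the first-series range (68.3 CPM in the CRMP1+CRMP2 female of litter 9_1, and 104 and 79.6 CPM in the male and the female of LDHA/B+CRMP1+STIP1 litter 9_4). In 5 libraries, all of exposed animals, 7 pineal markers summed to more than 10 CPM (between 41.6 and 263 CPM), against at most 6.68 CPM in controls. The CRMP1+CRMP2 calls and the second-series LDHA/B+CRMP1+STIP1 estimates are given with and without these libraries.

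The buffers lie on 3 chromosomes of the rat build rn7. Calb1, which encodes calbindin, spans chr5:29375659-29400053 on the plus strand, Calb2 (calretinin) chr19:38114435-38141438 on the minus strand and Pvalb (parvalbumin) chr7:109773302-109785771 on the minus strand. Of the sensors, Vsnl1 (visinin-like protein 1) spans chr6:34038641-34159479, Hpca (hippocalcin) chr5:141455668-141463993 and Ncald (neurocalcin delta) chr7:68532671-68628761, all on the minus strand. Hpcal1 (hippocalcin-like 1) spans chr6:40478212-40584694, Hpcal4 (hippocalcin-like 4) chr5:135454796-135462693 and Ncs1 (neuronal calcium sensor 1) chr3:14523220-14568829, all on the plus strand. The spans of Calb2, Hpca and Ncs1 overlap those of Rpl13, Tmem54 and Rpl8. Exon bases were shared in 1 case, 16 bases of Hpca and Tmem54, and whether counting used the strand is not given in the sources used here.

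Promoter sequences of 6 of the 9 genes (Pvalb, Vsnl1, Hpca, Hpcal1, Hpcal4 and Ncs1) were found in RefSeq for the build GRCr8, from 250 bases before to 50 bases after the start of the gene. They are shown for 3 genes whose levels differed between the series of controls (Pvalb, Vsnl1 and Hpcal1) and for Ncs1, whose level was nearly the same in both. Capitals mark the GC box GGGCGG, or CCGCCC where it lies on the other strand.
Pvalb, chr7:111666240-111666539, minus strand: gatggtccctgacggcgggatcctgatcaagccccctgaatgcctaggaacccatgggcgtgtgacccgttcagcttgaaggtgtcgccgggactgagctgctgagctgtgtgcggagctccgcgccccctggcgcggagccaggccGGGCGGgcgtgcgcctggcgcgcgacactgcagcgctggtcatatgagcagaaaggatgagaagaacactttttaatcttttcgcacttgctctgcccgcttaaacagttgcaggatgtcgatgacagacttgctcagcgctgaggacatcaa
Vsnl1, chr6:39878507-39878806, minus strand: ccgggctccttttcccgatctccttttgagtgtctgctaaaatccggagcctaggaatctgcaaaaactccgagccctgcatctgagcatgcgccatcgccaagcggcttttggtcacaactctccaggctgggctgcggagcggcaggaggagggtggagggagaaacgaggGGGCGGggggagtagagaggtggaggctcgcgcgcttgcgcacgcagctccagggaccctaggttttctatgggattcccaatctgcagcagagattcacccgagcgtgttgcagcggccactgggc
Hpcal1, chr6:46206644-46206943, plus strand: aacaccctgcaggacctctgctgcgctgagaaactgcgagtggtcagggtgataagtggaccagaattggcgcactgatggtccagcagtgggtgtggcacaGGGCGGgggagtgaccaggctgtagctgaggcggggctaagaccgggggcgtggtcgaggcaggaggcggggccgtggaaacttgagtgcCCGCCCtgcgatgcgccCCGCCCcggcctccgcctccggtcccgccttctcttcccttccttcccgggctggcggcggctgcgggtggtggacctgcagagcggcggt
Ncs1, chr3:34920699-34920998, plus strand: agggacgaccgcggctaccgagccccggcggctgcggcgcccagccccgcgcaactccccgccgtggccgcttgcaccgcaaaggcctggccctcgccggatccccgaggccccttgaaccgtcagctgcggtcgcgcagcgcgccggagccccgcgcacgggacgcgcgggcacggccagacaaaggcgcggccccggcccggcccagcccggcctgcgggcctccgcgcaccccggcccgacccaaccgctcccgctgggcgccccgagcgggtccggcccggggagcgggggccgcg
Hpcal1 held 3 GC boxes, Hpcal4 2, Pvalb and Vsnl1 1 each, and Hpca and Ncs1 0. Over 33469 promoters of the same length, 33.1% held this motif on either strand. TATAAA, searched on both strands, was in 0 of the 6 windows and in 14.2% of all promoters, and TGACG, on either strand, was in those of Pvalb, Hpca and Ncs1 and in 21.2% of all. The Ncs1 window held 51 CpG dinucleotides, more than 99.4% of all promoters held, and that of Hpca held 3, against a median of 7 over all promoters. These are matches of letters and not binding sites.

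Per length of annotated exon, Ncald, Ncs1, Vsnl1 and Hpca had similar levels and Pvalb was barely detected. The mean over 71 animals was 90.6 RPKM (counts per kilobase of exon, scaled to the library) for Ncald, 88.1 for Ncs1, 87.6 for Vsnl1, 84.2 for Hpca, 73.0 for Calb2, 64.8 for Hpcal4, 36.6 for Hpcal1, 28.1 for Calb1 and 1.13 for Pvalb. The 4 highest lie within 1 SD of each other (SD 18.3, 6.98, 17.7 and 14.8 RPKM, n = 71). Further down, neighbours in this order lie within 1 SD of the more variable gene (SD 38.9 RPKM for Calb2, 10.7 for Hpcal4, 12.3 for Hpcal1 and 7.80 for Calb1), except Hpcal4 with Hpcal1 and Calb1 with Pvalb. Every Hpcal4 value of the second series (56.6 to 91.2 RPKM) lay above every Calb1 value of that series (12.0 to 47.4 RPKM). The place of Calb2 depended on the series. Its mean was 33.8 ± 11.7 RPKM (SD, n = 28) in the first series, between those of Hpcal4 (57.8 RPKM) and Calb1 (27.3 RPKM), and 98.6 ± 27.1 RPKM (SD, n = 43) in the second, near that of Ncald (100 RPKM).

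**Figure D1:**
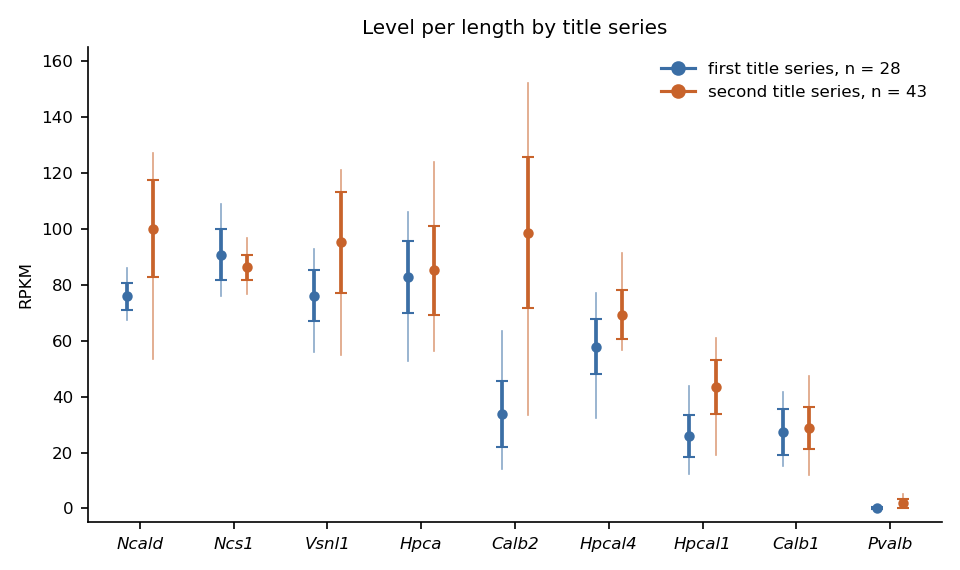
Level per annotated exon length (RPKM, vertical axis) of each gene, with the genes in the order of their mean over 71 animals and the first title series in blue (n = 28) and the second in orange (n = 43). Points are means, thick bars 1 SD and thin lines the range. Calb2 stands at 33.8 RPKM in the first and 98.6 RPKM in the second series, while Ncs1 stands at 90.8 and 86.2 RPKM.

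The controls of the series were compared first, since they received the same treatment and neither Calb2 nor Vsnl1 was chosen on this comparison. Calb2 was 2.95-fold, Hpcal1 1.64-fold, Ncald 1.41-fold, Vsnl1 1.32-fold and Hpcal4 1.29-fold higher in the second series, and Calb1, Hpca and Ncs1 did not pass the test. By edgeR's quasi-likelihood test with sex as covariate and Benjamini-Hochberg adjustment (FDR under 0.1), 5 of the 8 genes above the expression filter in both series were called higher and 0 lower. The count lower was also 0 by unadjusted p-values under 0.05, by DESeq2 and by limma voom. Over all 12565 genes tested, 21.3% were called higher and 20.2% lower, 41.5% in all. Pvalb also passed the threshold, but it reached the filter through second-series libraries alone and so had to be higher there. Series, slice content and separate processing cannot be told apart here. Because whole slices were sequenced, fewer cells of a type and less RNA per cell cannot be told apart either.

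Calb2, the calretinin gene, had 28.1 CPM in the lowest, 58.0 CPM in the median and 91.3 CPM in the highest of the 12 first-series controls. In the 12 second-series controls it had 121, 156 and 218 CPM. Each second-series control lay above each first-series control, which was so for 1.60% of 12477 genes in either direction. The difference was 1.56 ± 0.17 on the log2 scale (SE, edgeR, adjusted p = 2.26e-07), and the litter means, 32.4, 58.9 and 73.3 CPM against 131, 152, 163 and 188 CPM, did not overlap. Hpcal1, a visinin-like sensor, had a range of 28.2 to 73.5 CPM (median 45.2) in first-series and 55.0 to 103 CPM (median 77.1) in second-series controls. These ranges overlap, with 8 of the 12 second-series controls above all of the first series, and the log2 difference was 0.71 ± 0.15 (SE, edgeR, adjusted p = 0.000548).

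Ncald, the neurocalcin gene, ranged from 222 to 279 CPM (median 254) in first-series and from 260 to 382 CPM (median 363) in second-series controls. It was above the first-series range in 11 of 12 second-series controls, and its log2 difference of 0.49 ± 0.05 (SE, edgeR, adjusted p = 8.33e-08) had the smallest p of the 9 genes. Vsnl1, whose protein acts on membrane traffic of receptors, ranged from 117 to 174 CPM (median 150) and from 157 to 222 CPM (median 204). Here too 11 of 12 second-series controls lay above all of the first series (log2 difference 0.40 ± 0.06 SE, edgeR, adjusted p = 1.31e-05). Hpcal4, a hippocalcin relative, ranged from 21.5 to 47.1 CPM (median 37.2) and from 38 to 60.5 CPM (median 46.2). Its log2 difference of 0.37 ± 0.10 (SE, edgeR, adjusted p = 0.00823) rested on litter 9_25, whose 4 animals had 53.3 to 60.5 CPM. Without that litter the difference was 0.19 (adjusted p = 0.200), and with counts summed per litter it was 0.33 (adjusted p = 0.234).

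Ncs1, a sensor that modulates transmitter release, was between 134 and 169 CPM in first-series controls (median 151) and between 140 and 162 CPM in second-series controls (median 151). The log2 difference was 0.00, with a 95% interval from -0.08 to 0.08. Hpca, the hippocalcin gene of hippocampal and cortical pyramidal cells, differed by 0.11 (-0.04 to 0.26; edgeR, adjusted p = 0.301) and Calb1 by 0.19 (-0.12 to 0.50; adjusted p = 0.374). Pvalb was at 0 counts in 19 of 28 first-series and 4 of 43 second-series libraries. First-series controls held 33 Pvalb counts in all and at most 0.611 CPM each, and second-series controls held 440, with 0.0772 to 2.41 CPM each. The fitted log2 difference of 3.82 ± 0.63 (SE, edgeR, adjusted p = 4.45e-05) therefore rests on few reads in the first series.

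**Figure D2:**
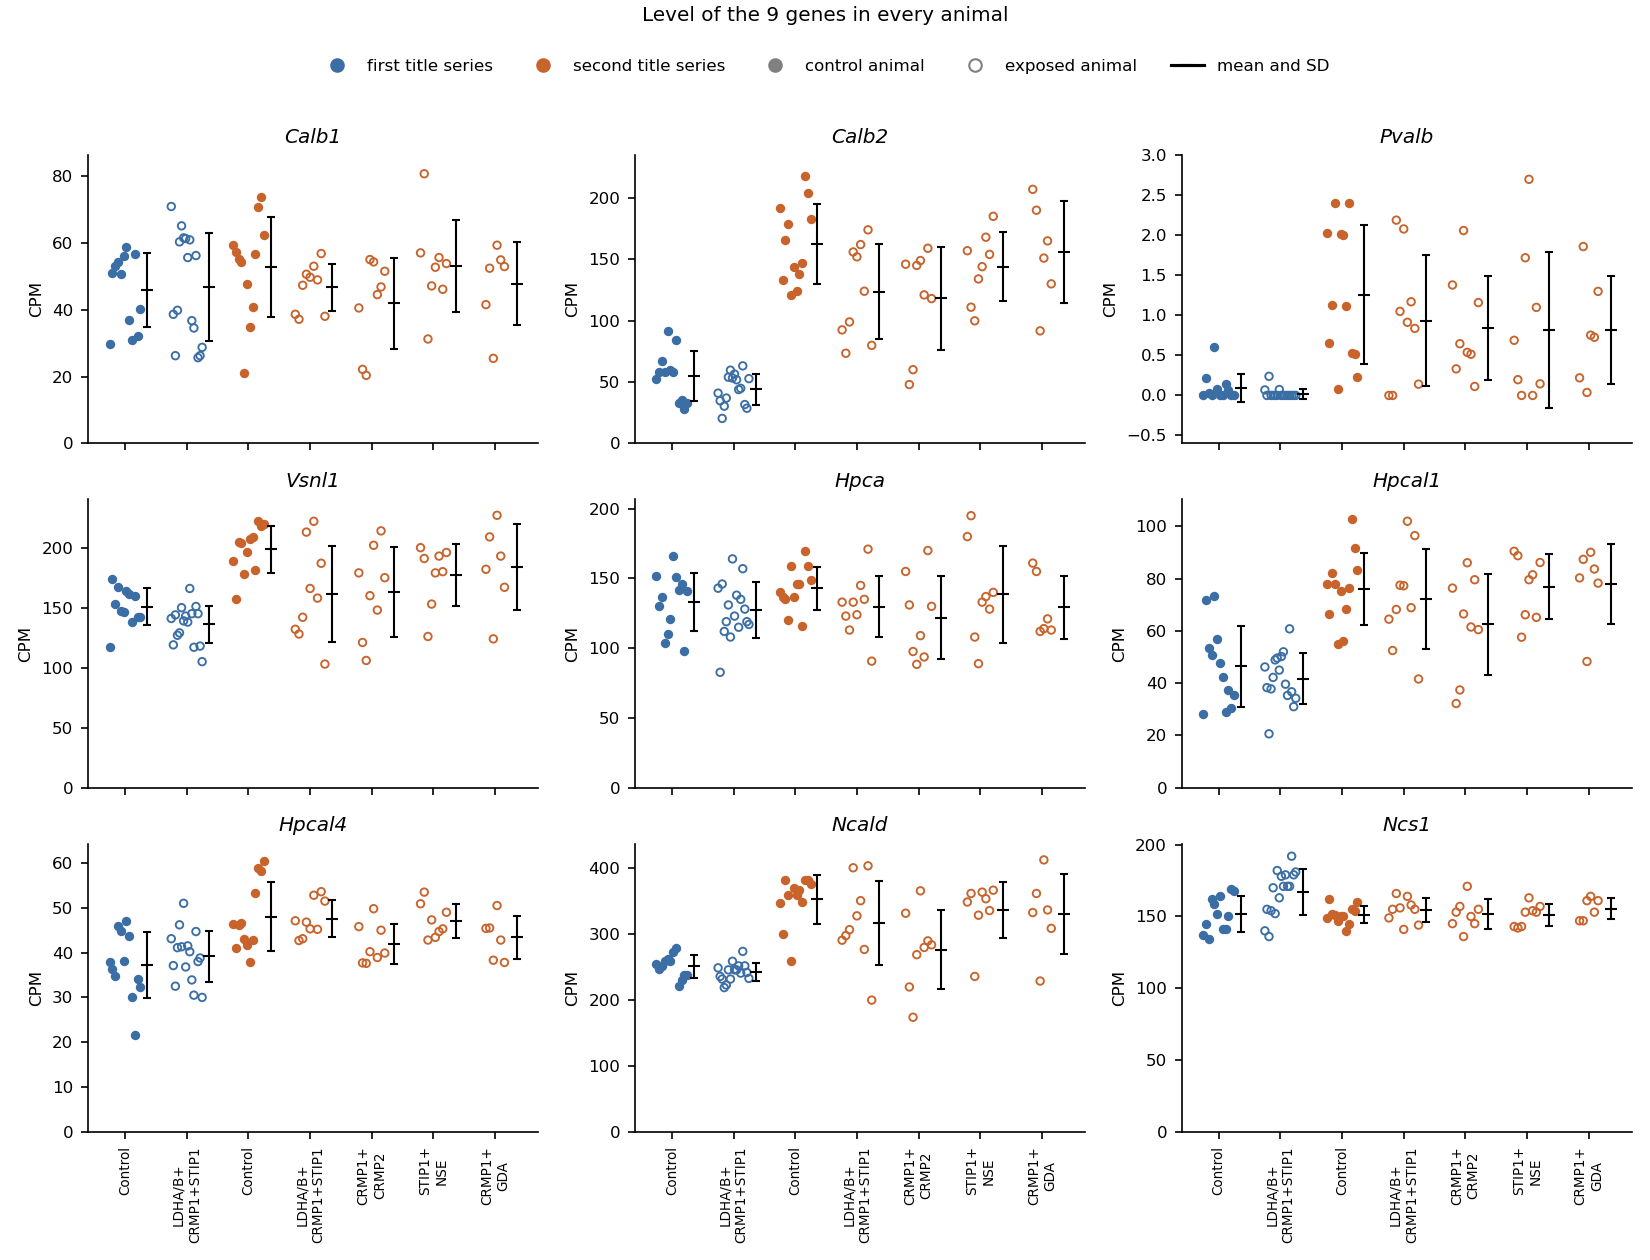
Level in CPM (vertical axis, separate scale for each gene) of every animal by group, with the first title series in blue, the second in orange, controls as filled and exposed animals as open circles. Bars are means with 1 SD. The second-series controls lie above the first-series controls for Calb2 (121 to 218 against 28.1 to 91.3 CPM), whereas Ncs1 covers 140 to 162 and 134 to 169 CPM.

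The marker genes that moved with this series difference were of several kinds. In the same fit 6 of 6 thalamus, 7 of 8 hypothalamus, 5 of 6 hippocampal, 5 of 6 Cajal-Retzius and 6 of 6 choroid plexus markers were called higher in second-series controls. At the same time 7 of 10 cortical projection neuron, 7 of 8 striatum and 5 of 10 GABAergic interneuron markers were called lower. The part of these tissues in the calcium-binding genes was not tested. Among the other genes of the family, 9 of 25 tested EF-hand genes were called higher and 4 lower, and of 8 tested sensors related to the visinin-like group 1 was called higher and 3 lower. Their median log2 differences were 0.06 and 0.09, near the 0.00 of all genes. By smallest p, Cib2, a calcium- and integrin-binding protein gene, was higher by 0.56 ± 0.06 on the log2 scale (SE, edgeR, adjusted p = 1.03e-07) and Cib1 by 0.64 ± 0.11 (adjusted p = 8.80e-05). Kcnip2, a potassium channel-interacting sensor, was lower (log2 difference -0.53 ± 0.06 SE, adjusted p = 2.13e-07), as were Caln1, which encodes calneuron 1 (-0.80 ± 0.09, adjusted p = 3.43e-07), and Scgn, which encodes secretagogin (-0.91 ± 0.17, adjusted p = 0.000159).

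Calb2 and Vsnl1 were then described in the exposure comparisons that the study made. The study gave both as examples of genes whose expression changed with LDHA/B+CRMP1+STIP1 autoantibodies, apart from genes that changed across most patterns. With 1 surrogate variable in the model, a hidden factor estimated from the counts themselves, the log2 difference was -0.23 ± 0.07 for Calb2 and -0.18 ± 0.05 for Vsnl1 (SE) in all 47 exposed against all 24 control animals. By pattern, the Calb2 estimate was -0.28 ± 0.11 for CRMP1+CRMP2, -0.23 ± 0.11 for STIP1+NSE, -0.22 ± 0.14 for CRMP1+GDA and -0.24 ± 0.08 for LDHA/B+CRMP1+STIP1 (SE). The Vsnl1 estimates were -0.24 ± 0.07, -0.17 ± 0.07, -0.17 ± 0.08 and -0.19 ± 0.05 (SE). These comparisons share the 24 controls, so their likeness is not independent, and the genes were chosen for this difference. The sign of the Calb2 estimates of the 3 patterns found in the second series alone came with the surrogate variable, since the controls are of both series: mean CPM before it was 118 in CRMP1+CRMP2, 144 in STIP1+NSE and 156 in CRMP1+GDA, against 109 in the 24 controls. For Vsnl1 these means were 163, 177 and 184 CPM against 175 CPM. With a litter left out, the Calb2 estimate of CRMP1+GDA ran from -0.46 (without 9_3) to -0.03 (without 9_8), and without litter 9_7 the Vsnl1 estimate of STIP1+NSE was -0.07.

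With controls of the same series only, the estimates were less alike. Calb2 had 48.0 to 159 CPM (median 133) in CRMP1+CRMP2, 99.9 to 185 CPM (median 149) in STIP1+NSE and 91.7 to 207 CPM (median 158) in CRMP1+GDA, beside the 121 to 218 CPM (median 156) of second-series controls. All 3 ranges overlap that of the controls, and 3 of 8, 2 of 8 and 1 of 6 animals lay below the lowest control. The log2 estimates within the second series were -0.50, -0.16 and -0.03. For Vsnl1 the ranges were 106 to 214 CPM (median 168), 126 to 200 CPM (median 185) and 124 to 227 CPM (median 188), against 157 to 222 CPM (median 204) in these controls, and the estimates were -0.30, -0.16 and -0.11. For both genes the CRMP1+CRMP2 estimate was the farthest from 0 of the 3, and whether the patterns differ is tested further on.

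LDHA/B+CRMP1+STIP1 is the pattern with animals in both series. Calb2 had 20.4 to 63.2 CPM (median 44.4) in its 16 first-series animals, and 14 of them lay below the median of the controls of their series. In its 9 second-series animals Calb2 had 73.5 to 174 CPM (median 124), and 7 lay below the control median. The log2 estimates, with sex as covariate, were -0.32 ± 0.18 and -0.39 ± 0.15 (SE). Vsnl1 had 105 to 166 CPM (median 140) and 103 to 222 CPM (median 158), again with 14 of 16 and 7 of 9 animals below the control median, and the estimates were -0.15 ± 0.06 and -0.31 ± 0.11 (SE). The first-series Calb2 estimate was -0.06 without control litter IgG2, -0.59 without control litter RNA4 and -0.19 without exposed litter IgG3. In the second series, without litter 9_4, whose pair of libraries was low in thalamus markers, the estimates were -0.25 for Calb2 and -0.22 for Vsnl1. The difference between the series' estimates was tested by an interaction term and was not detected for any of the 9 genes. For Calb2 it was -0.06 (95% interval -0.56 to 0.43; edgeR, p = 0.804, adjusted 1) and for Vsnl1 -0.15 (-0.39 to 0.08; p = 0.215, adjusted 1). By edgeR 0 of 9 genes passed FDR under 0.1 in this test, 0 had an unadjusted p under 0.05, DESeq2 and limma voom called 0, and 0.11% of 12700 genes were called, with 3.05% at an unadjusted p under 0.05.

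Among the 7 tested genes, an exposure difference was called in CRMP1+CRMP2 alone, where Ncald and Hpcal1 were lower. The fit with the surrogate variable called 2 of 7 genes, both lower, beside 6.56% of 12691 genes called lower and 4.83% called higher (11.4% in all). Ncald had 174 CPM in the lowest, 282 CPM in the median and 366 CPM in the highest of the 8 CRMP1+CRMP2 animals, and 260, 363 and 382 CPM in the 12 controls of the same series. The groups overlap, with 2 of 8 exposed animals below the lowest control and 7 of 8 below the control median. The log2 difference from all 24 controls was -0.28 ± 0.07 (SE, edgeR, adjusted p = 0.0145), a 1.21-fold lower level. Hpcal1 had 32.2, 64.0 and 86.1 CPM against 55.0, 77.1 and 103 CPM, with 2 animals below the lowest control. Its log2 difference was -0.26 ± 0.09 (SE, edgeR, adjusted p = 0.0749), or 1.20-fold lower. This is the estimate after the surrogate variable: without it, the mean of Hpcal1 was 62.5 CPM in CRMP1+CRMP2 and 61.3 CPM in the controls of both series together.

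The remaining 5 genes were not called in CRMP1+CRMP2. Calb1 had the largest estimate (-0.41, 95% interval -0.73 to -0.08, edgeR, p = 0.019, adjusted 0.128), with 8 of 8 animals below the median of second-series controls, and DESeq2 called it as well. Estimates were -0.19 (-0.39 to 0.00) for Hpca, -0.14 (-0.31 to 0.03) for Hpcal4, 0.09 (-0.84 to 1.02) for Pvalb and 0.01 (-0.07 to 0.09) for Ncs1. The median over the 7 genes was -0.19, beside 0.01 over all genes tested.

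Both calls depended on the fit, that of Hpcal1 more often: Ncald kept its call in 10 of 14 alternatives and Hpcal1 in 6. With series and sex as covariates and all controls, Ncald was called and Hpcal1 was not, beside 491 of 12691 genes. With controls and exposed animals of the second series alone, 0 of 7 genes were called (Ncald -0.36, adjusted p = 0.111; Hpcal1 -0.32, adjusted p = 0.239). With the litter as a random effect the count was also 0 (Ncald -0.29, adjusted p = 0.123; Hpcal1 -0.26, adjusted p = 0.235), and so it was with counts summed per litter (adjusted p = 0.392 for both). Without litter 9_6 it was 0 (Ncald -0.22, adjusted p = 0.149), and without litter 9_16 it was 4, with Calb1 and Hpca added. Without litter 9_1, or without its female alone, the library low in thalamus markers, Ncald was called and Hpcal1 was not (adjusted p = 0.14 and 0.142). Over all genes 1445 of 12691 were called with the surrogate variable and all controls, and 127 of 12605 in the second series alone. With the litter as a random effect 8 of 12691 were called, and with counts summed per litter 0 of 12363. Without litter 9_6 it was 41 of 12653, without 9_16 2889 of 12678 and without 9_1 1491 of 12660.

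A pair of animals carried the lowest values of several genes in this group. The female of litter 9_1 had 48.0 CPM of Calb2, 32.2 CPM of Hpcal1 and 220 CPM of Ncald, and a male of litter 9_6 had 60.1, 37.4 and 174 CPM. Their littermates had 146 and 145 CPM of Calb2 and 332 and 269 CPM of Ncald. The same pair had the highest cortical projection neuron sums of the group (1970 and 2050 CPM, the other 6 at 1010 to 1550 CPM) and the lowest thalamus sums (68.3 and 207 CPM, the other 6 at 384 to 932 CPM). The part of slice content in the CRMP1+CRMP2 difference was not tested. In the same fit 6 of 6 pineal and 6 of 6 choroid plexus markers were called higher and 4 of 10 GABAergic interneuron markers lower. Of 7 markers of maturing neurons, which Vsnl1 and Ncald followed from animal to animal, 3 were called lower (median log2 difference -0.14). The median was -0.53 for 8 striatum, -0.48 for the GABAergic interneuron, -0.39 for 8 hypothalamus and -0.07 for the thalamus and for the hippocampal markers. Without the pineal-rich libraries Ncald was called and Hpcal1 was not (adjusted p = 0.251), and 0 of 6 choroid plexus, 0 of 10 GABAergic interneuron, 0 of 7 maturing neuron and 0 of the 2 pineal markers still above the filter were called.

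Of 25 tested EF-hand genes 5 were called lower and 0 higher in CRMP1+CRMP2, and of 9 tested related sensors 3 were called lower and 1 higher, beside the 6.56% and 4.83% of all genes. Their median log2 differences were -0.16 and -0.13. With the litter as a random effect 1 EF-hand gene and 0 sensors were called, with counts summed per litter 0 and 0, and without the pineal-rich libraries 1 and 0, while over all genes the calls went from 1445 to 8, 0 and 322. By smallest p these were the calmodulin gene Calm3 (-0.27 ± 0.05 on the log2 scale, SE, edgeR, adjusted p = 0.00168) and Ppp3r1, the calcium-binding subunit of calcineurin (-0.15 ± 0.04, adjusted p = 0.0288). Kcnip2 was lower by a like amount (-0.27 ± 0.09, edgeR, adjusted p = 0.0632). Guca1b, a photoreceptor sensor of guanylate cyclase, was higher (3.20 ± 0.68, adjusted p = 0.00919). Pineal markers were high in 2 of the 8 libraries of this group, at 263 and 70.2 CPM, and at 3.23 to 6.61 CPM in the other 6. Without these 2 libraries and the pineal-rich libraries of other groups Guca1b was below the expression filter, and with the litter as a random effect it was not called (adjusted p = 0.277).

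**Figure D3:**
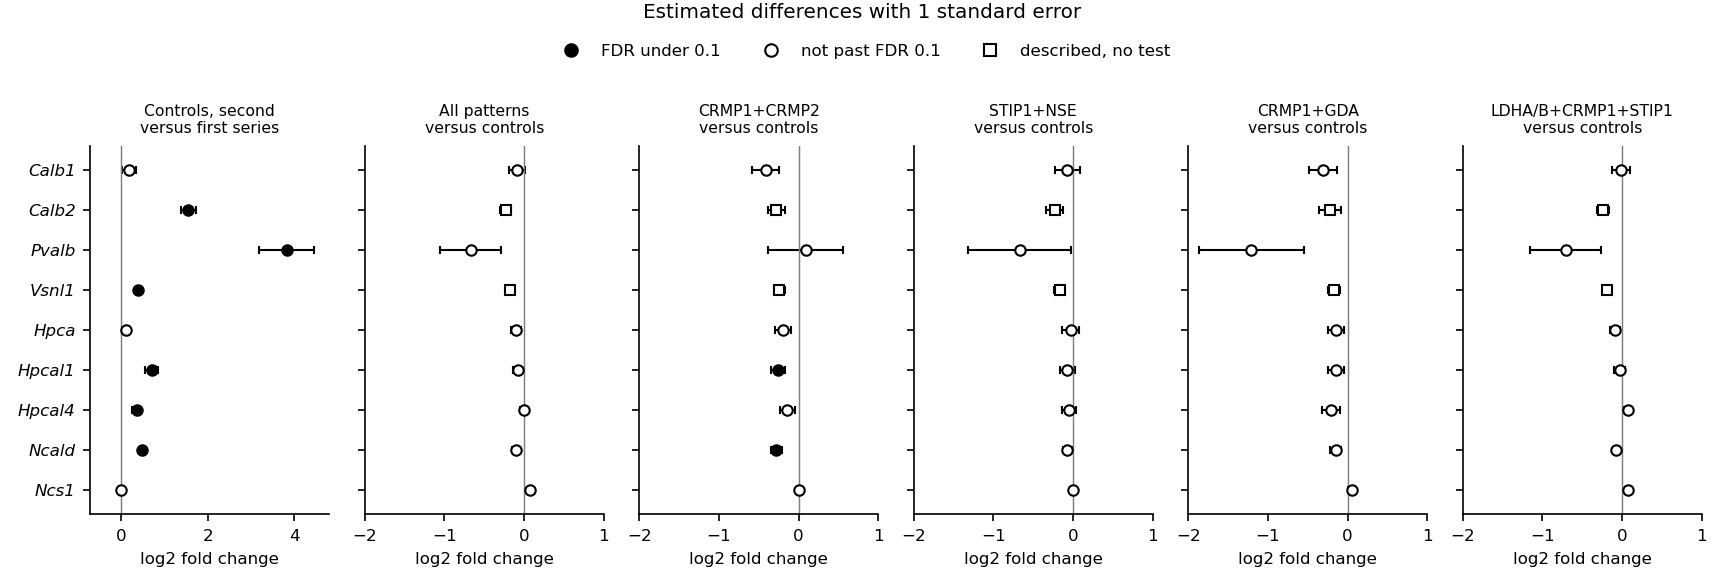
Log2 fold change (horizontal axis) with 1 standard error for the 9 genes in 6 comparisons, 1 panel each; the first panel has its own scale. Filled circles passed FDR under 0.1, open circles did not, and open squares are Calb2 and Vsnl1, described with no test. In the first panel Calb2 is at 1.56 and Ncs1 at 0.00, and in the third Ncald and Hpcal1 are filled at -0.28 and -0.26.

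In the other exposure comparisons 0 of the tested genes were called by edgeR, DESeq2 or limma voom. For all patterns together the 7 genes ran from -0.67 (Pvalb) to 0.07 (Ncs1) on the log2 scale, and Ncald (-0.10) and Ncs1 had an unadjusted p under 0.05 (edgeR, adjusted p = 0.454 and 0.365). There 0.0321% of 12477 genes were called, and 10.3% had an unadjusted p under 0.05. For STIP1+NSE, where 0.0474% of 12660 genes were called, 0 of 7 genes had an unadjusted p under 0.05 in edgeR, beside 3.19% of all genes. For CRMP1+GDA, where 0 of 12641 genes were called by edgeR (462, or 3.65%, at an unadjusted p under 0.05), Ncald alone was below that value (-0.15, 95% interval -0.28 to -0.01; adjusted p = 0.999), with a mean before the surrogate variable of 331 CPM against 302 CPM in the controls. For LDHA/B+CRMP1+STIP1, where 0.0157% of 12700 genes were called and 7.17% had an unadjusted p under 0.05, Ncs1 alone was (0.08, interval 0.02 to 0.15; adjusted p = 0.53).

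Ncs1 was the one gene with an estimate above 0 at such a p, and in LDHA/B+CRMP1+STIP1 it could be followed in both series. In the first series 10 of 16 exposed animals lay above the highest control (136 to 192 CPM, median 171, against 134 to 169 CPM, median 151), and the log2 estimate was 0.14 (95% interval 0.04 to 0.24, edgeR, p = 0.00924, adjusted 0.845). These animals were grouped by litter. All animals of exposed litters RNA1 (171 to 179 CPM) and RNA2 (171 to 192 CPM) were among them, while exposed litter IgG3 had 136 to 155 CPM. In the second series the exposed animals had 141 to 166 CPM (median 155) against 140 to 162 CPM, and the estimate was 0.02 (-0.04 to 0.09; p = 0.491). The interaction term was -0.11 (-0.24 to 0.02; p = 0.0926, adjusted 1). In these within-series comparisons 0 of the tested genes passed FDR under 0.1 in edgeR, DESeq2 and limma voom, with 1 and 0 at an unadjusted p under 0.05, beside 0.0161% of 12415 and 0% of 12570 genes called (5.45% and 5.62% at an unadjusted p under 0.05). Pvalb was below the expression filter in the first of them.

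The 4 patterns were compared with each other within the second series, without the controls. By edgeR's F test 0 of the 9 genes differed among them at FDR under 0.1 and Hpcal4 alone had an unadjusted p under 0.05 (p = 0.0412, adjusted 0.817). DESeq2 called 0 genes with 1 at an unadjusted p under 0.05, limma voom called 0, and 0% of 12698 genes were called (627, or 4.94%, at an unadjusted p under 0.05). Hpcal4 had medians of 40.1 CPM in CRMP1+CRMP2, 44.1 in CRMP1+GDA, 46.3 in STIP1+NSE and 46.8 CPM in LDHA/B+CRMP1+STIP1, and these groups overlap (37.6 to 53.6 CPM in all). Ncald, called against controls in CRMP1+CRMP2, had p = 0.246 (adjusted 0.817) in this test.

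No difference between the sexes was detected for any of the genes. In females against males, over all 71 animals with group and series as covariates, 0 of 9 genes passed FDR under 0.1 or an unadjusted p under 0.05 in edgeR and in DESeq2, and 0 were called by limma voom, beside 0.0624% of 12816 genes called and 4.7% with such a p. The intervals were narrow for 5 genes, with -0.13 to 0.06 for Hpcal4, -0.11 to 0.11 for Vsnl1, -0.11 to 0.12 for Hpca, -0.07 to 0.12 for Ncald and -0.03 to 0.07 for Ncs1 on the log2 scale. They were wider for Calb1 (-0.32 to 0.08), Calb2 (-0.28 to 0.14) and Hpcal1 (-0.31 to 0.03), and widest for Pvalb (-1.39 to 0.21).

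How much the genes varied from animal to animal within a group and series set them apart. Ncs1 had a standard deviation of 0.10 on the log2 scale, Hpcal4 and Ncald 0.21, Vsnl1 0.24, Hpca 0.26, Hpcal1 0.38, Calb1 0.45, Calb2 0.46 and Pvalb, near its detection limit, 1.36. Of this variance 40.8% lay between litters for Calb2, 37.8% for Hpcal4, 37.6% for Hpca and 36.4% for Ncs1, and 18% for Calb1. First-series controls of litter RNA4 had 28.1 to 35 CPM of Calb2 while the other first-series control litters had 52.3 to 91.3 CPM.

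Calb1, Calb2, Vsnl1, Hpcal1 and Ncald varied together, more so in the second series than in the first. After each animal's log2 CPM was centred on its group and series, Calb2 and Hpcal1 had a Pearson r of 0.84 over 71 animals (Spearman rho 0.81), 0.78 in the first and 0.89 in the second series, and 0.80 without the 2 farthest animals. For Vsnl1 and Ncald r was 0.82 (rho 0.79, 0.38 and 0.89 by series, 0.76 without 2), so that this relation was weaker in the first series. So were those of Calb2 with Vsnl1 (0.23 and 0.81 by series) and of Calb1 with Ncald (0.24 and 0.73). For Calb1 and Hpcal1 r was 0.80 (rho 0.80, 0.76 and 0.83 by series, 0.79 without 2). Each had p = 1e-05 for r and rho in a two-sided permutation test, the smallest that 100000 resamples can give (Benjamini-Hochberg adjusted over 36 pairs, 3.6e-05 and 3.0e-05). Of the 36 pairs, 20 had an adjusted p under 0.05 and 12 an r of at least 0.5. Hpcal4 had r of 0.56 with Hpcal1, 0.52 with Calb2, 0.48 with Calb1, 0.38 with Ncald and 0.37 with Vsnl1. Pvalb, the most variable gene, had r between -0.09 and 0.34 with the other 8, and Hpca had 0.19 with Calb1, 0.25 with Calb2 and 0.24 with Hpcal1. Ncs1 had r between -0.18 and 0.14 with the other 8, none with an adjusted p under that value (0.18 to 0.98). Animals of a litter are not independent, and all genes of an animal share 1 library and 1 scaling.

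**Figure D4:**
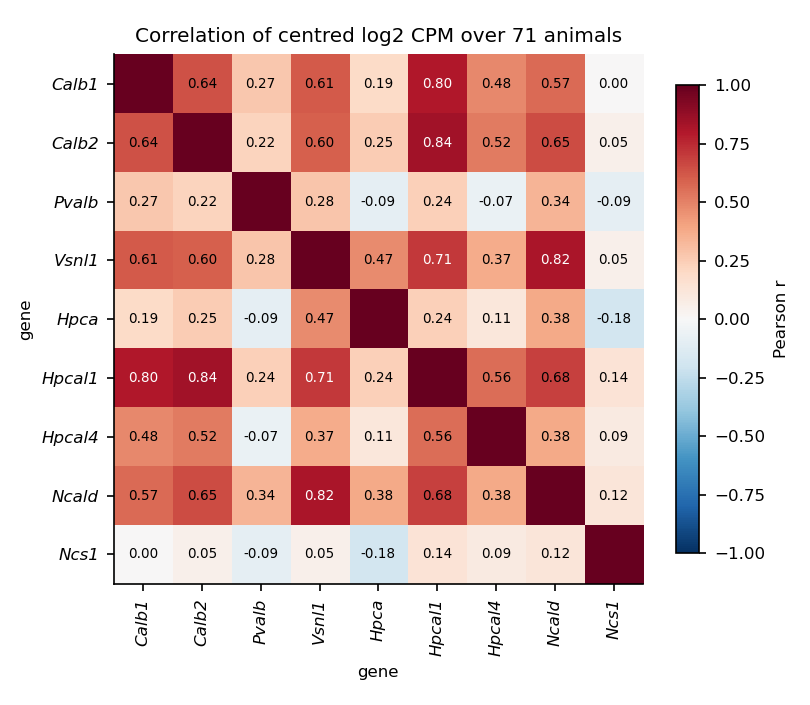
Pearson correlation (colour, from -1 to 1) of the 9 genes with each other over 71 animals, on log2 CPM centred within group and series. Calb1, Calb2, Vsnl1, Hpcal1 and Ncald form a block with r between 0.57 and 0.84, and the row of Ncs1 lies between -0.18 and 0.14.

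The same genes moved with markers of the tissue in the slice. Against the mean of 10 cortical projection neuron markers, centred in the same way, r was -0.77 for Hpcal1 (rho -0.81, -0.77 and -0.78 by series, -0.79 without the 2 farthest animals) and -0.76 for Calb2 (rho -0.77, -0.68 and -0.82 by series, -0.76 without 2). It was -0.70 for Calb1 (rho -0.67, -0.70 and -0.71 by series, -0.68 without 2). For these 3 genes the permutation p was 1e-05 for r and rho, the smallest possible (adjusted over 153 relations, 5.1e-05 and 5.9e-05). For Hpca r was -0.12 (rho -0.19; permutation p = 0.30 for r, adjusted 0.40, and adjusted 0.18 for rho) and for Ncs1 0.13 (rho 0.08; permutation p = 0.26, adjusted 0.35, and 0.61 for rho). Vsnl1 and Ncald followed 7 markers of maturing neurons, a list that includes Syt1 and Snap25, with r of 0.73 and 0.72 (rho 0.57 for both; permutation p = 1e-05, adjusted 5.1e-05 and 5.9e-05). By series these were 0.46 and 0.80 for Vsnl1 and 0.32 and 0.80 for Ncald, and 0.69 and 0.66 without the 2 farthest animals. Vsnl1 and Ncald also fell with the cortical projection neuron markers (r = -0.61 and -0.58). Hpcal1 in turn had r = 0.58 with the maturing neuron markers. With 6 thalamus markers r was 0.64 for Calb2 (rho 0.60, 0.56 and 0.72 by series, 0.60 without 2), with permutation p = 1e-05 for r and rho (adjusted 5.1e-05 and 5.9e-05). This was not particular to thalamus markers or to Calb2. For Calb2 r was 0.63 with hippocampal, 0.60 with hypothalamus, 0.58 with astrocyte and 0.55 with Cajal-Retzius markers. For Hpcal1 it was 0.61 with thalamus, 0.65 with hippocampal, 0.69 with hypothalamus and 0.64 with GABAergic interneuron markers. For Calb1 it was 0.68 with hypothalamus, 0.66 with striatum and 0.60 with GABAergic interneuron markers, and for Calb2 0.48 with the last of these.

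**Figure D5:**
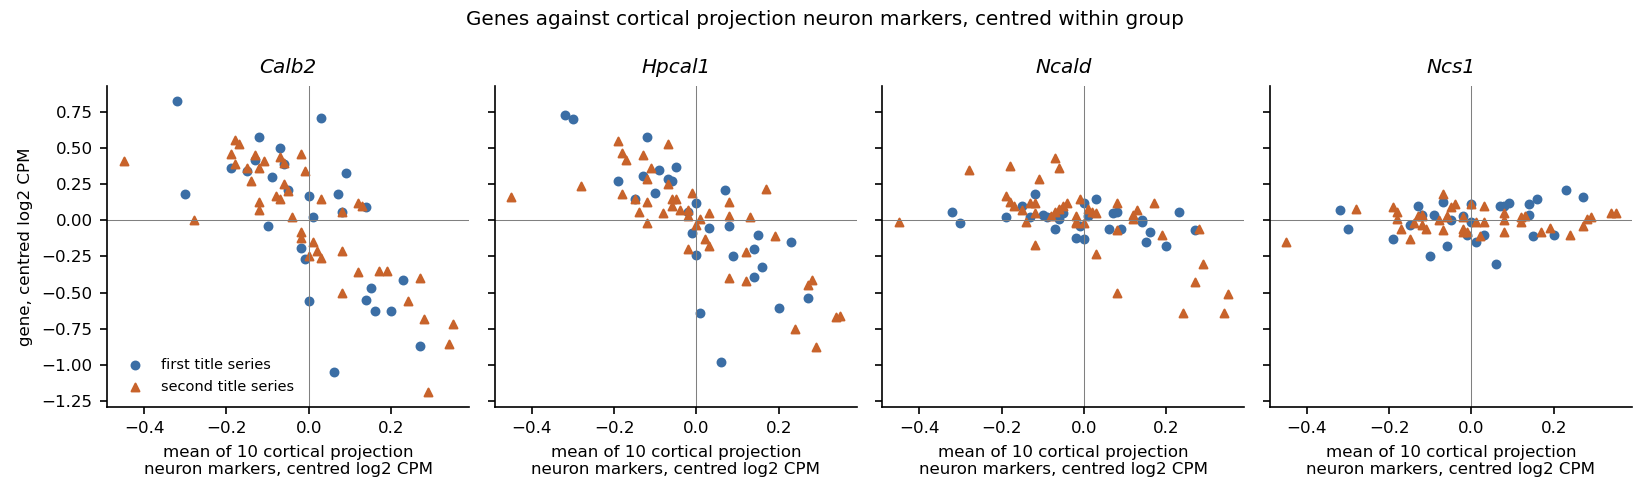
Log2 CPM of Calb2, Hpcal1, Ncald and Ncs1 (vertical axis) against the mean log2 CPM of 10 cortical projection neuron markers (horizontal axis), both centred within group and series, 1 point for each of 71 animals, with the first series as blue circles and the second as orange triangles. Calb2 (r = -0.76) and Hpcal1 (r = -0.77) fall along the axis in both series, Ncald (r = -0.58) falls mainly at its right end, and Ncs1 (r = 0.13) is level.

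Over all 12476 other genes above the filter, the genes most like each of the 9 were listed by Pearson's r of centred log2 CPM, as a description. Those most like Calb2 were Nell1 (r = 0.86), Gjd2 (0.84) and Rnd2 (0.84), and those most like Hpcal1 were Nnat (0.92), Zcchc12 (0.92) and Resp18 (0.91). Zcchc12 also led the list of Calb1 (0.83), before Pdyn (0.82) and Ecel1 (0.82). Vsnl1 was closest to Ache (0.85), Alg2 (0.82) and Ncald (0.82), Ncald to Sdc3 (0.90), App (0.88) and Olfm1 (0.86), and Hpca to Nrgn (0.87), Fndc5 (0.79) and Sult4a1 (0.77). Hpcal4 reached at most 0.68, with Lin7a, and Cbx6 and Slc4a10 followed at 0.67. For Ncs1 the closest gene, LOC100364769, had r = 0.53, Fbxo21 had 0.49, and for Pvalb Rasd1 had 0.64, Prkch 0.59 and Epha1 0.58. Some of these values held in 1 series only: LOC100364769 had 0.68 with Ncs1 in the first and 0.14 in the second series, and Prkch had -0.36 and 0.70 with Pvalb. The number of genes with an r over 0.7 was 316 for Hpcal1, 151 for Calb1, 146 for Calb2, 99 for Ncald, 94 for Vsnl1, 27 for Hpca and 0 for Hpcal4, Ncs1 and Pvalb.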

How the data were processed

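The deposited values are whole-number counts, which the authors made by aligning reads to rn7 with STAR 2.5.4b and counting with featureCounts, per the labels; options and annotation are not given in the sources used here. The deposited exon lengths in bases, per the file headers, served for RPKM. Among counts from 1 to 9, 74.5% were even, so halved counts were tried.

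Groups, litters and sex came from the labels. The 9 genes, gene lists and tests were chosen with earlier results of these data known. Tests were edgeR 4.0.16 quasi-likelihood fits (R 4.3.3, TMM, trended dispersion, robust) on all genes tested, with Benjamini-Hochberg adjustment and FDR under 0.1. Filters were 1 CPM in at least 8 samples (all patterns) or over 1 CPM in at least 2. Exposure fits with all controls carried 1 surrogate variable (sva 3.50.0), the fit for sex carried group and series, and the others carried sex. Log2 CPM used a prior count of 2.

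All 9 genes are described, with full values for those that passed FDR under 0.1 and for Calb2 and Vsnl1, ranges for the rest, the 3 most alike genes for each, and at most 5 other EF-hand genes for each comparison. Some genes that these rules select are not reported here. Alternatives were DESeq2 1.42.0, median-ratio size factors, no filter, the litter as random effect (limma 3.58.1 voom), counts summed per litter, series and sex as covariates, the second series alone and each litter left out; leaving out libraries by thalamus or pineal markers and the litter as a block for sex were added after seeing the data. Simulated data with 200 changed genes were used as a test: for CRMP1+CRMP2 against controls, over 12691 genes, 100 of 100 genes changed by 1 and 98 of 100 changed by less on the log2 scale were found, with 19 false calls among 217. The simulated animals were drawn independently, with the same spread for all genes and no litter effect, and well-counted genes alone were changed. The test therefore cannot show how many changes are found, or how many calls are false, where animals share litters. Library totals were 24880182 to 36234952 counts, and Pvalb lies near the detection limit at this depth.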

Additional observations from a re-analysis of the deposited data

Results flagged for a closer look

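In groups of 4 to 10 animals, a value was singled out where the gap to its neighbour took most of the group's range (Dixon's criterion). Chance alone singles out a value in about 1 in 20 groups, and 36 groups were checked, so some such values come up by chance. Ncald was 236 CPM in 1 STIP1+NSE animal of the second series, the male of litter 9_7, while the other 7 had 329 to 367 CPM. That library held 47.4 CPM of pineal markers, but the male of litter 9_12 in the same group held 88.3 CPM and had 364 CPM of Ncald. The 9_7 male also had the lowest hypothalamus marker sum of its group, 7.9 CPM. Its Calb1 (31.3 CPM), Calb2 (99.9 CPM), Vsnl1 (126 CPM) and Hpcal1 (57.6 CPM) were the lowest of the group too. Hpcal1 was 48.3 CPM in 1 CRMP1+GDA animal, the male of litter 9_8, while the other 5 had 78.3 to 90.1 CPM. That animal also had the lowest hypothalamus marker sum of its group, 4.79 CPM, and the lowest Calb2 (91.7 CPM), Ncald (229 CPM) and Calb1 (25.5 CPM), while its female littermate had 151, 413 and 59.4 CPM. The part of slice content in these values was not tested.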

How the results depend on the processing

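The count of called genes in CRMP1+CRMP2, 2 of 7 with all controls and the surrogate variable, was 0 with the litter as a random effect, 0 with counts summed per litter, 0 in the second series alone and 1 (Ncald) with series and sex as covariates. It was 1 (Ncald) without the library low in thalamus markers, 1 (Ncald) without the pineal-rich libraries, and between 0 and 4 with a litter left out. Over all genes the count of calls in this comparison was 1445, against 8, 0, 127 and 491 under the first 4 of these settings, 322 without the pineal-rich libraries and 41 to 2889 with a litter left out. The cause was not tested. Ncald stayed negative in 14 alternatives (-0.36 to -0.22), as did Hpcal1 (-0.33 to -0.20). In the controls of the series, 5 or 6 of the 9 genes were called under 13 alternatives. Pvalb, which had to be higher there, was among them each time, and Hpcal4 kept its call in 11 of the 13. The calls over all genes were 5218, 2813 with the litter as a random effect and 1895 with counts summed per litter. Every other count of called genes stayed at 0 in edgeR, DESeq2 and limma voom under the alternatives run. Calb2 stayed between -0.59 and -0.03 and Vsnl1 between -0.40 and -0.07 in the exposure comparisons. For the exposure comparisons no paired fit was made, since the replicate numbers were given in accession order and a litter holds 1 exposure only. For sex, a fit with the litter as a block, chosen after seeing the data (22 litters held both sexes, 58 animals), called 0 of 9 genes in edgeR, with 0 at an unadjusted p under 0.05.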
